A study of Mus musculus with 23 samples.

Results

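The genes described here are 10 genes of the unfolded protein response and the integrated stress response: Hspa5, Sdf2l1, Creld2, Herpud1, Xbp1, Atf4, Ddit3, Atf3, Trib3, and Asns. They were taken by gene symbol, and each of the 10 was found on a row of the expression table, which holds 48895 genes. The study injected CT26 cells, a mouse colon carcinoma line, into the cecal serosa of male BALB/c mice aged 4 to 6 weeks to ask how a primary colorectal tumor changes the liver before metastases form. Sham-operated mice of the same strain and sex received serum-free medium at the same site. RNA was collected at 3 weeks from the control liver of 5 sham-operated mice (C1, C4, C5, C6, and C7) and from 9 tumor-bearing mice (M1, M2, M4, M5, M6, M7, M8, M10, and M12), each of which gave its pre-metastatic liver and its primary tumor. The 23 libraries were made from poly(A) RNA of whole tissue, so that fewer cells of a type and less RNA per cell cannot be told apart, and all tumors come from a single transplanted line.

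The unfolded protein response adjusts the endoplasmic reticulum (ER) to its load of unfolded protein. IRE1 splices the mRNA of the transcription factor Xbp1, ATF6 is released from the membrane by proteolysis, and both raise chaperones and degradation factors, whereas PERK phosphorylates the initiation factor eIF2. Phosphorylation of eIF2, which GCN2 also carries out when amino acids run short, slows translation while favoring that of Atf4, and ATF4 in turn raises genes of amino acid supply and, under lasting stress, Ddit3, Atf3, and Trib3. The hepatocyte secretes most plasma proteins and has a large ER, and it adjusts this response between fasting and feeding.

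The promoters were examined first for the known elements through which the arms of the response act. All 10 were found in the RefSeq promoter set (GRCm38.p6, 250 bases before to 50 after the start), with 1 promoter each, and both strands were searched. The ER stress element (CCAAT, 9 bases of any kind, CCACG) occurred in 2 of the 10, Hspa5 and Creld2, and in 0.119% of all 32851 promoters. The second ER stress element (ATTGG, 1 base of any kind, CCACG) occurred in Herpud1 and in 0.0365% of all promoters. The C/EBP-ATF composite element that binds ATF4 (TGATGNAA) occurred in 4 of the 10, Herpud1, Atf3, Trib3, and Asns, and in 3.97% of all promoters. The match in Trib3, written TTACATCA on the strand of the gene, lies 14 to 21 bases after the start and is lost when only upstream bases are searched. Neither the unfolded protein response element (TGACGTGG, 0.676% of all promoters) nor the full cyclic AMP response element (TGACGTCA, 1.79%) was present in any of the 10. Distances are from the RefSeq start, which for Herpud1 (94386429) lies inside the gene as the expression file places it and for Asns (7693209) just before it. The matches with up to 20 bases on either side are given 5′ to 3′ on the strand of the gene, with the matched bases in capitals.
Hspa5, chr2:34772005-34772063, plus strand, 65 to 47 bases before the start: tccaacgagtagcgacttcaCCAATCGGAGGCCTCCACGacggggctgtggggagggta
Creld2, chr15:88819500-88819558, plus strand, 126 to 108 bases before the start, element on the opposite strand: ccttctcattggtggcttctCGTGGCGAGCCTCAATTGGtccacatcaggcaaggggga
Herpud1, chr8:94386357-94386407, plus strand, 52 to 42 bases before the start: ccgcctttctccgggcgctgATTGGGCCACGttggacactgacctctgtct
Herpud1, chr8:94386297-94386344, plus strand, 112 to 105 bases before the start, element on the opposite strand: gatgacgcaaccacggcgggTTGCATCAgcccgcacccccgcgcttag
Atf3, chr1:191183416-191183463, minus strand, 110 to 103 bases before the start, element on the opposite strand: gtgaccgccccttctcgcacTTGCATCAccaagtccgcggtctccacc
Asns, chr6:7693210-7693252, minus strand, 23 to 16 bases before the start: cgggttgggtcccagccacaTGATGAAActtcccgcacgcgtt
A match shows only that these letters are present. Sdf2l1, Xbp1, Atf4, and Ddit3 held none of the 5 motifs in this window.

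Total counts were 44587556 to 79773163 per library. The 10 most counted genes took 15 to 27.9% of the counts of a liver and 4.78 to 5.74% of those of a tumor. RPKM, which divides by the total, and the TMM scaling of edgeR therefore place tumor and liver differently: the median log2 fold change of all genes was 0.13 with TMM and 1.30 with library totals in the tumor versus pre-metastatic liver comparison, a move of 1.18. The share of higher genes among all calls moved with it from 52.5 to 76%, and in the liver comparison, where the median moved by -0.08, from 57.1 to 46%. Hepatocyte markers (8 genes) summed to 32011 to 65356 RPKM in the livers and to 6.16 to 265 RPKM in the tumors, and leukocyte markers (6 genes) to 23.8 to 48.3 in control liver, 57.6 to 195 in pre-metastatic liver, and 894 to 2768 in the tumor. Of 7 epithelial markers, which summed to 3.94 to 15 RPKM in the tumors, Epcam and Vil1 had medians below 0.1 there. An index of 6 clock genes divided the livers into an early phase (4 control and 5 pre-metastatic livers) and a late phase (C7, M1, M2, M10, and M12), and a tumor was given the phase of its mouse. The livers were cut at the widest gap of the index, between M7 (-0.102), the highest early-phase liver, and C7 (0.981), the lowest late-phase liver. The next late-phase liver, M12, was at 2.05, nearly as far from C7 as M7 was. The phase of C7, the only late-phase control liver, is therefore uncertain, as are the phase results that rest on it.

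Ordered by level per gene length, the 10 genes stood differently in liver and tumor. In control liver, Hspa5 came first with a mean of 827 RPKM and Asns last with 0.319, and the chaperone-side genes Herpud1 (173), Creld2 (140), Xbp1 (101), and Sdf2l1 (85.7) all stood above Atf4 (67.3), with overlapping ranges between neighbors from Herpud1 down to Atf4. Ddit3 followed with 13.9, below the whole range of Atf4, then Atf3 (3.55) and Trib3 (2.41), which overlapped. The order in pre-metastatic liver ran from Hspa5 (451 RPKM) to Atf3 (1.37), and from Ddit3 (3.98) downward each gene overlapped the next. In the primary tumor, Hspa5 remained first (512), while Atf4 (207) and Asns (76.9) came next, above Creld2 (53.4), Xbp1 (41.8), Sdf2l1 (29.3), and Herpud1 (27.7). Asns thus moved from the tenth place to the third, and Herpud1 from the second to the seventh. Within a library, the order of the genes does not depend on how libraries are scaled against each other. Neighbors in the tumor overlapped except Hspa5 and Atf4, Atf4 and Asns, and Trib3 and Atf3.

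**Figure D1:**
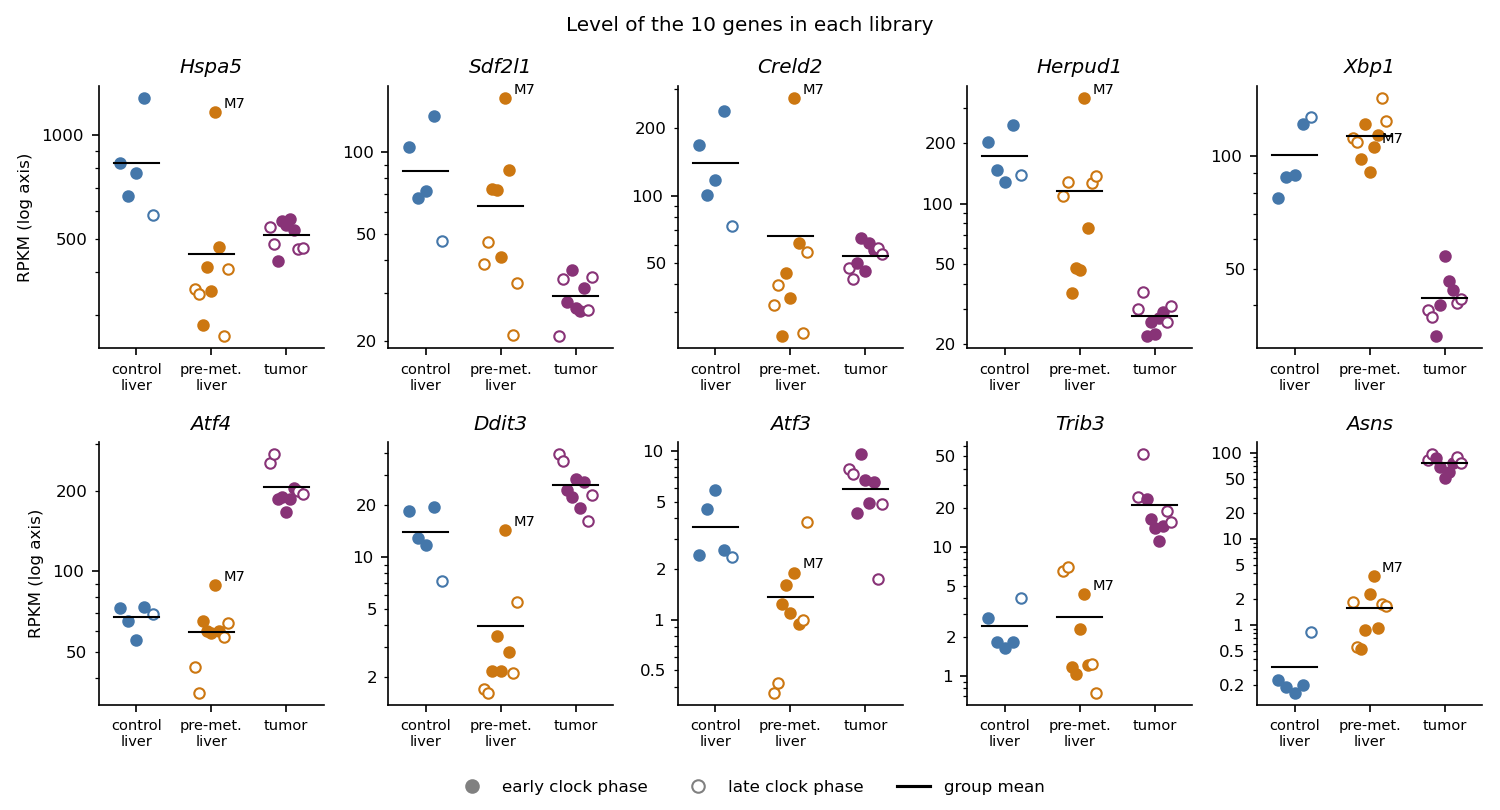
RPKM (log axis) of the 10 genes in the 23 libraries, each point a library, filled for the early and open for the late clock phase, with a line at the group mean and the pre-metastatic liver of M7 marked. Asns lies between 51.8 and 97.1 RPKM in the 9 tumors and below 4 RPKM in every liver, and the liver of M7 lies far above the other 8 pre-metastatic livers for Hspa5, Creld2, Herpud1, and Ddit3.

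The first comparison, pre-metastatic versus control liver, asks whether the liver of a tumor-bearing mouse differs in this response. With edgeR, 1 of the 10 genes rose and 1 fell at an adjusted p under 0.05, against 17.7% higher and 13.3% lower among the 16987 genes tested. Asns, the enzyme that makes asparagine, rose 5.46-fold, and Ddit3, the transcription factor CHOP of lasting ER stress, fell 3.23-fold. The other 8 did not pass, with adjusted p from 0.051 (Atf3) to 0.746 (Atf4). A single library, the pre-metastatic liver of M7, weighed on this count: without it, 4 of the 10 were called lower (Hspa5, Creld2, Ddit3, and Atf3) and 1 higher (Asns), against 13.8% lower and 17.7% higher among 16763 genes. M7 was singled out by its values for these same genes. The fits without it, here and below, therefore describe its weight and are not independent tests of a fall.

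Hspa5 encodes BiP, the main chaperone of the ER lumen and the protein that holds the stress sensors inactive (chromosome 2, 34772090 to 34776529, plus strand, mm10). Its level was 830, 664, 775, 1279, and 588 RPKM in control livers C1, C4, C5, C6, and C7. The pre-metastatic livers had a lowest value of 261 (M10), a median of 357, and a highest of 1162 (M7). The liver of M7 stood within the control range, while the other 8, at 261 to 473 RPKM, all lay below the lowest control liver. The log2 difference over all 14 livers was -0.78 ± 0.33 (SE, adjusted p = 0.0855), and without M7 it was -1.12 ± 0.20 (adjusted p = 0.000885), a 2.17-fold lower level.

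Creld2, an ER-resident protein with EGF-like repeats that is induced by ER stress (chromosome 15, 88819646 to 88826681, plus strand), followed Hspa5 liver by liver. Control livers C1, C4, C5, C6, and C7 had 168, 101, 117, 239, and 73.2 RPKM. Pre-metastatic livers ranged from 23.4 (M4) through a median of 39.9 to 274 RPKM (M7). Without M7 the highest pre-metastatic value was 61.6, below every control liver, so that the groups overlapped through 1 library. The difference was -0.98 ± 0.55 on the log2 scale with all livers (adjusted p = 0.194) and -1.75 ± 0.30 without M7 (adjusted p = 0.000745).

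Sdf2l1, a component of an ER chaperone complex (chromosome 16, 17130138 to 17132383, minus strand), had 105, 67.9, 71.9, 136, and 47 RPKM in the control livers. The pre-metastatic livers spanned 21.1 (M10) to 159 RPKM (M7) with a median of 46.7. The groups overlapped widely, also without M7, and the difference passed in neither fit (-0.36 ± 0.40, adjusted p = 0.529, and -0.69 ± 0.31, adjusted p = 0.101). Among the pre-metastatic livers other than M7, early-phase livers had 40.8 to 86.2 RPKM and late-phase livers 21.1 to 46.7, ranges that overlapped.

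Herpud1, a membrane scaffold of the complex that returns misfolded protein to the cytosol for degradation (chromosome 8, 94386138 to 94395366, plus strand), differed from the chaperones in its pattern. Control livers had 203, 148, 128, 247, and 139 RPKM, and pre-metastatic livers had 35.8 (M4) to 336 (M7) with a median of 109. The 4 late-phase pre-metastatic livers had 109 to 138 RPKM, whereas the 4 early-phase ones other than M7 had only 35.8 to 75.8. Early-phase control livers were at 128 to 247 RPKM and the late-phase control liver was at 139, so the gap from control was wide in the early phase and small in the late phase. The log2 difference was -0.47 ± 0.45 in all livers (adjusted p = 0.457) and -0.88 ± 0.34 without M7 (adjusted p = 0.0574). Within the early phase it was -0.63 (adjusted p = 0.51) with M7 and -1.77 (adjusted p = 0.0029) without it. No test within the late phase could be made, with 1 control liver. A test of whether the difference varied with phase was not run.

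Xbp1, the transcription factor that IRE1 activates by splicing (chromosome 11, 5520641 to 5525993, plus strand), varied least from mouse to mouse in the pre-metastatic liver, with a coefficient of variation of 13.5%. Control livers had 77.3, 88.2, 89, 122, and 127 RPKM and pre-metastatic livers 90.5 (M6) to 143 (M10), median 112. The liver of M7, at 106 RPKM, lay inside the range of the others. The difference of 0.26 ± 0.13 on the log2 scale did not pass (adjusted p = 0.131). Counts per gene do not separate the spliced from the unspliced mRNA.

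On the side of the integrated stress response, Atf4, the factor whose translation rises when eIF2 is phosphorylated (chromosome 15, 80255184 to 80257545, plus strand), was nearly level. Its control livers had 73.2, 65.1, 55.4, 73.7, and 69.3 RPKM, and its pre-metastatic livers 35.2 (M2) to 89 (M7) with a median of 59.7. The groups overlapped, and the log2 difference was -0.09 ± 0.19 (adjusted p = 0.746). Livers M1 and M2 had the lowest values, 43.9 and 35.2 RPKM. Since ATF4 is set largely by translation, its mRNA does not measure the protein.

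Ddit3 (chromosome 10, 127290793 to 127296291, plus strand) had 18.4, 12.9, 11.7, 19.4, and 7.28 RPKM in the control livers. In the pre-metastatic livers it had 1.62 (M2) to 14.3 RPKM (M7), median 2.17. The other 8 pre-metastatic livers, at most 5.44 RPKM, lay below all 5 control livers, and M7 lay among them. The fall was -1.69 ± 0.49 on the log2 scale (adjusted p = 0.017) and -2.29 ± 0.32 without M7 (adjusted p = 0.000215), a 4.9-fold lower level. Within the early phase alone it was -1.54 (adjusted p = 0.068) with M7, which ended the call, and -2.54 (adjusted p = 0.000228) without it.

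Atf3, a stress-induced repressor and activator of transcription (chromosome 1, 191170296 to 191183333, minus strand), had 2.43, 4.54, 5.83, 2.6, and 2.36 RPKM in the control livers. The pre-metastatic livers had 0.369 (M1) to 3.77 RPKM (M12) with a median of 1.09, and M12 was the only one of 9 that reached the control range. The difference of -1.24 ± 0.46 missed the threshold with edgeR (adjusted p = 0.051), and its call turned with the setting. It passed with DESeq2 (-1.25, adjusted p = 0.0225), without M7 (-1.32, adjusted p = 0.0486), without M12 (-1.65, adjusted p = 0.00396), and within the early phase (-1.43, adjusted p = 0.00646). It did not pass with phase as a covariate (-1.21, adjusted p = 0.0828, and -1.34, adjusted p = 0.0807, without M7) or without any of the other 12 livers in turn (adjusted p up to 0.152).

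Trib3, a pseudokinase that ATF4 and CHOP induce (chromosome 2, 152337425 to 152344060, minus strand), had 2.8, 1.82, 1.64, 1.82, and 3.99 RPKM in the control livers. The pre-metastatic livers spread from 0.743 (M12) to 7 RPKM (M2) around a median of 1.24, with M1 at 6.47 and M7 at 4.32. These 3 livers stood above all control livers, 5 of the others stood below all of them, and the difference did not pass (0.31 ± 0.53, adjusted p = 0.695). The livers of M1 and M2, the highest for Trib3, were the lowest for Atf4, Ddit3, and Atf3, while the tumors of the same mice were the highest for Atf4, Ddit3, and Trib3.

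Asns (chromosome 6, 7675165 to 7693182, minus strand) was close to absent from 4 control livers. Its level was 0.227, 0.186, 0.162, and 0.199 RPKM in C1, C4, C5, and C6 and 0.821 in C7, from 22 to 102 counts per library. The pre-metastatic livers had 0.52 (M4) to 3.71 RPKM (M7) with a median of 1.66. All 9 lay above C1, C4, C5, and C6, and only M2 and M4 lay below C7. The rise of 2.45 ± 0.57 on the log2 scale (adjusted p = 0.0049) was 2.16 ± 0.52 without M7 (adjusted p = 0.0064), 3.13 without C7 (adjusted p = 0.00157), and 3.22 within the early phase (adjusted p = 0.0051), so that M7 added to the rise here and reduced the fall of Ddit3.

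**Figure D2:**
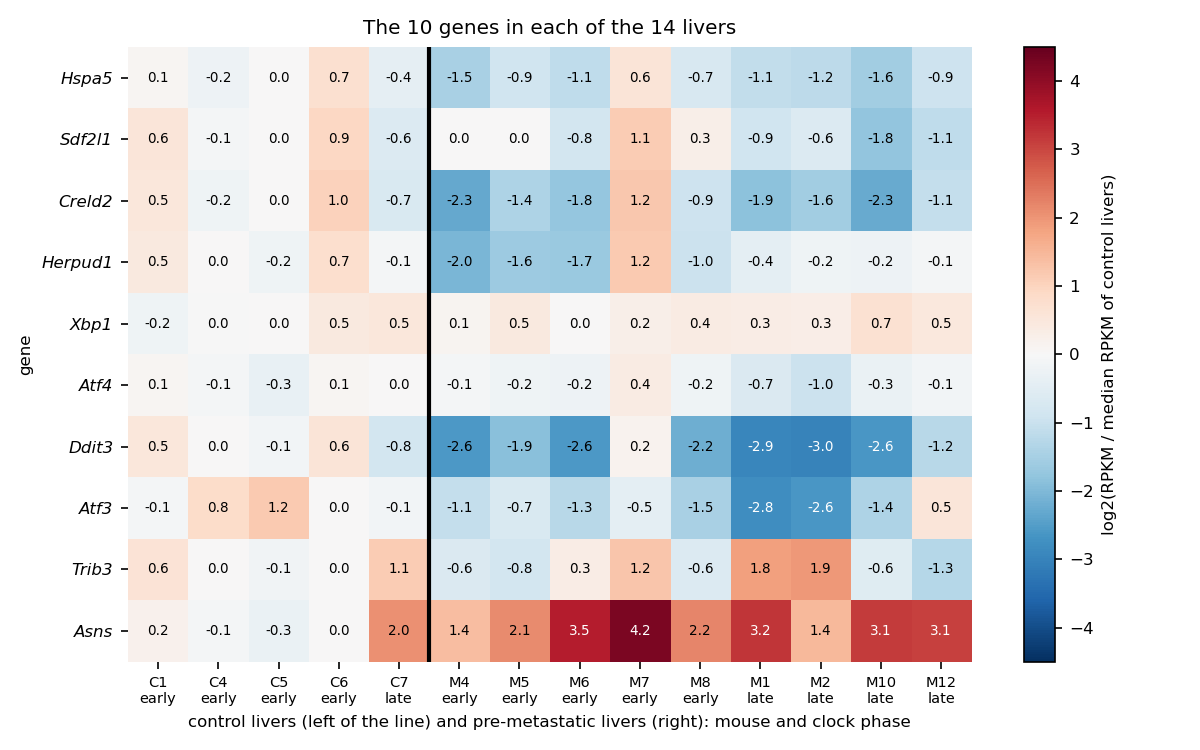
Each liver's RPKM of the 10 genes as log2 of its ratio to the median of the control livers, with control livers left of the line and pre-metastatic livers right of it, ordered by clock phase. M7 is above the control median in all 10 rows but Atf3, while Ddit3 is below it in the other 8 pre-metastatic livers and Asns above it in all 9.

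The liver of M7 was the highest of the 9 pre-metastatic livers for 7 of the 10 genes, where it was the highest for 6.81% of the 16987 genes tested. Its level was 7.33 times the median of the other 8 for Creld2, 6.62 times for Ddit3, 3.64 times for Sdf2l1 and for Herpud1, and 3.27 times for Hspa5, but 0.934 times for Xbp1. It also held the highest value for 13 of 16 ER chaperones and foldases and 10 of 12 cytosolic heat shock genes, and for none of 9 ER stress sensors and proteases and none of 12 immediate early genes. Fgf21, a hormone that ATF4 induces in hepatocytes, was 21.2 times the median of the others in this liver (30.1 RPKM). Its library had the most counts of the group, 79773163. Hepatocyte markers summed to 35118 RPKM in M7 against 32011 to 65356 in the others, leukocyte markers to 71.3 against 57.6 to 195, epithelial markers to 326 against 193 to 323, and plasma cell markers (6 genes) to 15.6 against 1.89 to 17.3. Exocrine pancreas markers (6 genes), those of another tissue with a large ER, summed to 0.055 RPKM in M7 against 0 to 0.0974 in the others. Goblet cell markers (6 genes) summed to 2.17 RPKM in M7 against 0.116 to 2.98 in the others, with a median of 0.287 over all 9. Whether cells other than hepatocytes add to the values of M7 was not tested. The part of sequencing depth in these values was not tested.

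Other genes of the response were read in 8 lists, beside 2 lists of other stress genes. Over all 16987 genes tested in the liver comparison, 17.7% were higher and 13.3% lower, shares to set beside each list count. In pre-metastatic versus control liver, amino acid supply held 8 higher, 1 lower, and 6 uncalled genes of 15 tested, with a median log2 difference of 0.67 beside 0.01 for all genes. Phgdh, the first enzyme of serine synthesis, rose by 2.56 ± 0.57 (1.13 ± 0.992 against 0.211 ± 0.0809 RPKM, SD, adjusted p = 0.00372), and Mthfd2 of mitochondrial folate metabolism by 1.99 ± 0.40 (adjusted p = 0.00169). Among ATF4 target regulators and secreted factors, 3 of 10 rose and 3 fell. Chac1, which degrades glutathione, rose by 4.33 ± 0.73 (6.59 ± 6.01 against 0.355 ± 0.195 RPKM, adjusted p = 0.000535). Vldlr, the receptor for very low density lipoprotein, fell by 2.08 on the log2 scale (SE 0.40, adjusted p = 0.00131), or by 1.31 without C7. Its levels were low, 0.194 ± 0.0762 against 0.879 ± 0.857 RPKM. Of 12 tRNA synthetases 3 rose and none fell, with Cars at 1.18 ± 0.24 (adjusted p = 0.00173). Of 7 eIF2 kinases and phosphatase subunits 2 rose, among them Eif2ak4, which encodes GCN2, by 0.46 ± 0.09 (adjusted p = 0.002).

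Among the ER lists, the chaperones were mostly uncalled in the liver and the translocation genes mostly higher. Of 16 ER chaperones and foldases 3 rose and none fell, with a median of -0.02, and Ppib, the prolyl isomerase cyclophilin B, rose by 0.80 ± 0.11 (392 ± 28.1 against 239 ± 28.4 RPKM, adjusted p = 0.000184). Without M7, 3 of the 16 rose and 3 fell. Of 12 ER translocation genes 8 rose and none fell, with a median of 0.35, among them the translocon subunits Sec61g (0.87 ± 0.11, adjusted p = 8.23e-05) and Sec61b (0.78 ± 0.09, adjusted p = 4.64e-05). With library totals 5 of the 12 rose, and without M7 6 rose. Of 14 ER-associated degradation genes 1 rose (Edem2, 0.58 ± 0.11, adjusted p = 0.00161) and 2 fell, with Ufd1l at -0.68 ± 0.08 (adjusted p = 4.53e-05), and without M7 the fallen were 5. Of 9 ER stress sensors and proteases 4 rose and 2 fell. Ern1, which encodes IRE1, rose by 0.78 ± 0.13 (adjusted p = 0.000388), and Creb3, a membrane-bound transcription factor, fell by 0.60 on the log2 scale (SE 0.08, adjusted p = 0.000101).

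Of the 2 lists outside the response, cytosolic heat shock held 10 lower genes of 12 and none higher, with a median of -1.15. Hspb1 had 4.97 ± 2.76 RPKM in pre-metastatic and 22.2 ± 12.1 in control liver (-2.07 ± 0.34, adjusted p = 0.000438), and the co-chaperone Dnajb1 had 11.3 ± 6.7 and 28.3 ± 2.17 (-1.22 ± 0.34, adjusted p = 0.0132). Of 12 immediate early genes 2 rose, among them Junb (1.54 ± 0.20, adjusted p = 9.68e-05). The lists were drawn up with earlier results of these data known, so their counts describe the lists and test nothing about them.

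The tumor comparisons set the primary tumor against the pre-metastatic liver of the same 9 mice and against the control liver, which share the tumors, and they ask how the response stands in the tumor. Tumor and liver differ in cell type, and the marker sums given above moved with every tumor result, so that cell type and tumor cannot be told apart. In tumor versus pre-metastatic liver, all 10 genes passed, 5 lower and 5 higher, where 39.5% of 19749 genes were lower and 43.8% higher. The 5 lower genes were Hspa5, Sdf2l1, Creld2, Herpud1, and Xbp1, and the 5 higher ones were Atf4, Ddit3, Atf3, Trib3, and Asns. With library totals in place of TMM, 3 were lower and 5 higher, Hspa5 turning to 0.18 (adjusted p = 0.447) and Creld2 keeping -0.30 (adjusted p = 0.47). Of all 19749 genes, library totals called 4206 lower and 13352 higher. The exact Wilcoxon test on RPKM, which also divides by library totals, called Hspa5 higher in the tumor (0.33, adjusted p = 0.0125), giving 6 higher and 3 lower. Without the liver of M7 the counts were again 5 and 5, beside 39.1% lower and 43.8% higher of 19628 genes.

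Herpud1 and Xbp1 fell most among the genes of the ER side. Herpud1 had 21.9 (M4) to 36.4 RPKM (M2), median 27.1, in the tumors, below all but the lowest pre-metastatic liver (M4, 35.8). Its log2 difference was -3.28 ± 0.37 (adjusted p = 7.72e-08), a 9.71-fold lower level. Xbp1 had 33.1 (M4) to 54.2 RPKM (M6), median 40.7, below every liver, and fell 6.16-fold (-2.62 ± 0.11, adjusted p = 1.18e-14). Sdf2l1 had 20.8 (M1) to 36.5 RPKM (M5), median 27.9, overlapping the lowest pre-metastatic livers (-2.31 ± 0.30, adjusted p = 5.27e-07). These 3 were also lower under library totals. The tumor of M6 was the highest for Xbp1 and the lowest for Atf4 and Asns. Its exocrine pancreas markers summed to 78.8 RPKM, where the median of the tumors was 0.0128. Whether pancreas tissue adds to the values of this tumor was not tested. With each library left out in turn, the log2 difference of Xbp1 was -2.67 to -2.58.

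Hspa5 and Creld2 depended on the scaling. Hspa5 had 431 (M4) to 571 RPKM (M7), median 531, in the tumors, inside the range of the pre-metastatic livers and above the median of these, 357. The log2 difference was -1.02 ± 0.25 with TMM (adjusted p = 0.000807), -0.68 without the liver of M7 (adjusted p = 0.0001), and 0.18 with library totals. Relative to the median of all genes it was -1.15 with TMM and -1.12 with library totals. Creld2 had 42.2 (M2) to 64.5 RPKM (M5), median 54.5, in the tumors, between the pre-metastatic extremes (-1.52 ± 0.41, adjusted p = 0.00221). Its difference shrank to -0.76 without the liver of M7 (adjusted p = 0.000834) and to -0.96 with the mouse as a block (adjusted p = 0.0115). Relative to the median of all genes it was -1.65 with TMM and -1.60 with library totals. A change of scaling moves all genes by nearly the same amount. Values relative to the median of all genes, here and below, are therefore nearly equal under either scaling by construction, and their agreement tests nothing. Both genes lay below that median, whereas the sign of the change of Hspa5 and the call of Creld2 depended on the scaling. The tumors were the more uniform tissue for both, with coefficients of variation of 9.7% for Hspa5 and 14.1% for Creld2, against 61% and 120% in the pre-metastatic livers and 19.4% and 35.2% in those without M7.

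Asns stood furthest from liver on the other side. It had 51.8 (M6) to 97.1 RPKM (M2), median 77.4, in the tumors, and no liver reached 4 RPKM, so the groups were far apart. The rise was 4.38 ± 0.36 on the log2 scale (adjusted p = 6.50e-10), 20.9-fold. Atf4 had 167 (M6) to 274 RPKM (M2), median 195, above every liver (0.61 ± 0.16, adjusted p = 0.00153). Trib3 had 11 (M7) to 51.8 RPKM (M2), median 16.3, also above every liver, and rose by 1.72 ± 0.44 (adjusted p = 0.00135). Ddit3 had 16.1 (M10) to 39.6 RPKM (M1), median 24.5, above every pre-metastatic liver, M7 included (1.50 ± 0.39, adjusted p = 0.00162, and 2.09 without that liver). Atf3 had 1.74 (M10) to 9.56 RPKM (M5), median 6.53, overlapping the liver of M7 and that of M12, and its difference was close to the threshold (0.89 ± 0.39, adjusted p = 0.0411). Of the 18 fits that left out 1 library, 12 lost the call of Atf3, with adjusted p up to 0.0776.

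Within the clock phases the tumor differences kept their signs under TMM. Among early-phase mice alone, Atf4 (0.28, adjusted p = 0.12) and Ddit3 (1.04, adjusted p = 0.082) lost their calls, and both passed in the early phase without the liver of M7 (0.38, adjusted p = 0.0081, and 1.98, adjusted p = 6.62e-07). Among late-phase mice Atf3 did not pass (0.73, adjusted p = 0.42).

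Against control liver, 3 genes were higher and 5 lower, where 44.2% of 19320 genes were higher and 38.1% lower. Asns had a difference of 6.85 ± 0.39 on the log2 scale (adjusted p = 9.16e-11), 115-fold, where against pre-metastatic liver it had 20.9-fold. Without the control liver C7, whose Asns level was far above that of the other 4, the difference from control was 7.51. Trib3 differed by 2.04 ± 0.36 (adjusted p = 7.45e-05) and Atf4 by 0.53 ± 0.13 (adjusted p = 0.00118). Herpud1 (-3.73 ± 0.17), Sdf2l1 (-2.64 ± 0.20), Creld2 (-2.48 ± 0.21), Xbp1 (-2.34 ± 0.12), and Hspa5 (-1.78 ± 0.17) were lower with adjusted p from 4.81e-12 to 5.03e-08, and no tumor reached the range of the control livers for any of these 5. They were lower with library totals as well. How many of all genes have tumor and control liver ranges apart is not given here. The separation is therefore not shown to be particular to these 5.

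Ddit3 and Atf3 did not pass against control liver with TMM (-0.18 ± 0.24, adjusted p = 0.5, and -0.33 ± 0.32, adjusted p = 0.342). With library totals both turned and passed (0.92, adjusted p = 0.0022, and 0.75, adjusted p = 0.0456). Among early-phase mice alone Ddit3 was lower in the tumor under TMM (-0.54, adjusted p = 0.0169), so that no direction can be given for these genes. Relative to the median of all genes, Ddit3 was at -0.36 with TMM and -0.35 with library totals.

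**Figure D3:**
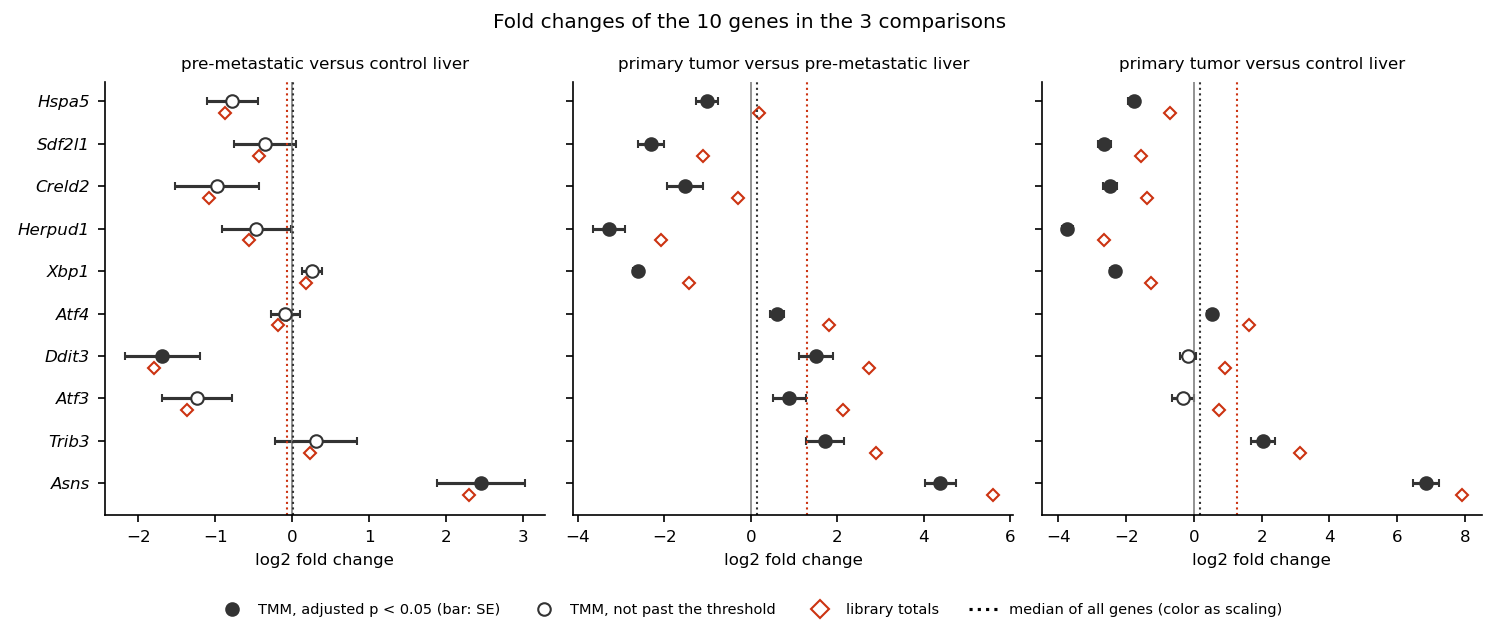
Log2 fold changes of the 10 genes in the 3 comparisons: circles with SE bars are TMM fits (filled, adjusted p < 0.05), diamonds are fits with library totals, and dotted lines are the median of all genes under each. In both tumor comparisons all diamonds lie to the right of their circles by about the shift of the median, 1.18 and 1.08, and in tumor versus pre-metastatic liver Hspa5 crosses 0.

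The lists of other genes divided in the same comparison, tumor versus pre-metastatic liver. The shares to set beside each list count are 39.5% lower and 43.8% higher of all 19749 genes under TMM. Library totals called 4206 of the 19749 lower and 13352 higher. Of 16 ER chaperones and foldases 15 fell and 1 rose under TMM, with a median log2 difference of -1.50 beside 0.13 for all genes. Library totals left 8 lower and 3 higher, and relative to the median of all genes the list median was -1.63 with TMM and -1.62 with library totals. The pair of ER oxidases moved apart: Ero1l had 56 ± 22.3 RPKM in the tumor and 3.33 ± 0.558 in the liver (2.88 ± 0.22, adjusted p = 1.53e-10), and Ero1lb had 2.83 ± 0.372 and 10.3 ± 3.92 (-3.04 ± 0.18, adjusted p = 4.63e-12). Of 14 ER-associated degradation genes 13 fell under TMM, and 9 fell and 4 rose with library totals. Derl3 fell by 5.61 on the log2 scale (SE 0.65, adjusted p = 1.05e-07) and Derl2 by 2.13 (SE 0.09, adjusted p = 1.82e-14). All 12 ER translocation genes fell under TMM, but 8 rose and 2 fell with library totals. Sec63 fell by 1.73 (SE 0.08, adjusted p = 5.37e-14), whereas Spcs1, a subunit of signal peptidase, turned from -0.67 ± 0.07 (adjusted p = 1.03e-08) to 0.52 with library totals. Of 9 ER stress sensors and proteases 3 rose and 3 fell, and with library totals 8 rose and 1 fell. The liver-enriched factor Creb3l3 had 0.226 ± 0.229 RPKM in the tumor and 128 ± 37.3 in the liver (-10.28 ± 0.57, adjusted p = 1.52e-12), and the protease gene Mbtps2 rose by 0.88 ± 0.10 (adjusted p = 1.59e-07).

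Amino acid supply moved the other way. Of its 16 genes 12 rose and 3 fell, with a median of 3.79, or 3.66 relative to all genes (3.67 with library totals, under which 13 rose and 1 fell). Phgdh had 194 ± 33.8 RPKM in the tumor and 1.13 ± 0.992 in the liver (6.19 ± 0.42, adjusted p = 3.36e-11), while Cth, the last enzyme of cysteine synthesis from methionine, had 0.221 ± 0.23 and 119 ± 32.9 (-10.19 ± 0.56, adjusted p = 1.25e-12). Among 11 ATF4 target regulators and secreted factors 5 rose and 5 fell. Vldlr rose by 5.02 ± 0.26 (adjusted p = 5.00e-13), and Gdf15, a stress-induced hormone, fell by 4.40 on the log2 scale (SE 0.43, adjusted p = 8.48e-09). Of 12 tRNA synthetases 3 fell and 6 rose under TMM, among the latter Lars (1.38 ± 0.10, adjusted p = 1.84e-10) and Gars (1.32 ± 0.11, adjusted p = 6.40e-10). With library totals 11 rose. Of 7 eIF2 kinases and phosphatase subunits 3 rose and 3 fell, and with library totals 6 rose and none fell. Ppp1r15a, which encodes GADD34, the subunit that directs dephosphorylation of eIF2, rose by 1.60 ± 0.18 (adjusted p = 8.78e-08), and Eif2s1, which encodes the phosphorylated subunit of eIF2, by 0.85 ± 0.08 (adjusted p = 2.26e-09).

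Outside the response, 4 of 12 cytosolic heat shock genes rose and 3 fell under TMM, where 7 rose and none fell with library totals. Hsp90ab1 had 1227 ± 142 RPKM in the tumor and 263 ± 72.1 in the liver (1.04 ± 0.16, adjusted p = 6.23e-06), and Hsp90aa1 had 398 ± 62.1 and 88.5 ± 44.6 (0.97 ± 0.23, adjusted p = 0.00064). Of 12 immediate early genes 7 rose and 4 fell, and 10 rose with library totals. Fosl1 rose by 7.25 ± 0.61 (adjusted p = 8.64e-10), or by 8.67 without the liver of M6, and Fosb by 5.15 ± 0.37 (adjusted p = 8.86e-11). Both were low in the liver, Fosl1 at 0.24 ± 0.444 and Fosb at 0.0347 ± 0.0256 RPKM.

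**Figure D4:**
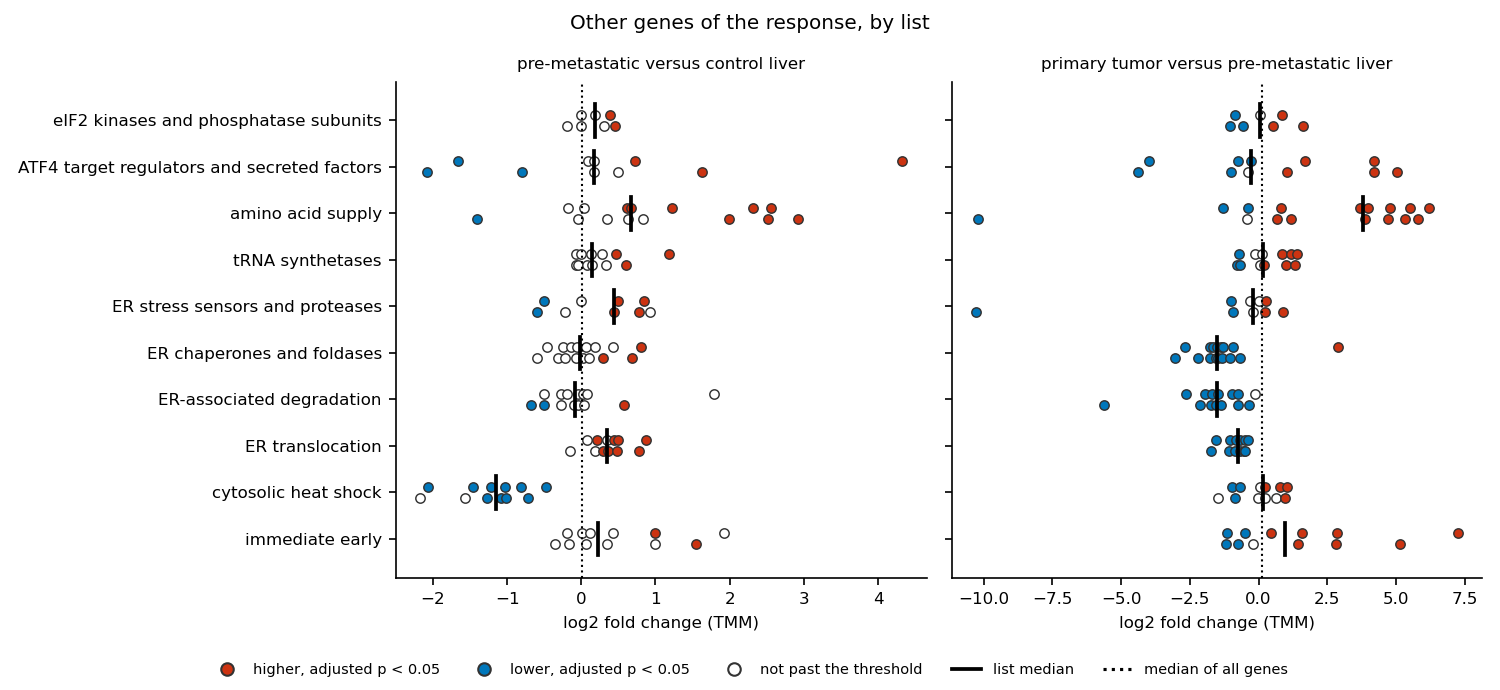
Log2 fold changes under TMM of the genes of 8 lists of the response and 2 lists of other stress genes, each point a gene (red higher, blue lower at adjusted p < 0.05, white not), with the list median as a bar and the median of all genes dotted. In the liver comparison the heat shock list lies to the left, with a median of -1.15, and in tumor versus pre-metastatic liver the chaperone and degradation lists lie to the left (-1.50 each) and amino acid supply to the right (3.79).

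Across the 9 mice, the 45 pairs among the 10 genes were correlated within each tissue. In the pre-metastatic livers 34 of 45 pairs were positive, with a median Spearman rho of 0.217, and 2 pairs passed an adjusted p of 0.05. Hspa5 and Creld2 rose and fell together (rho = 0.9, exact permutation p = 0.00203, adjusted p = 0.0456, and Pearson r = 0.991, exact p = 6.61e-05, adjusted p = 0.00298). Without M7 and M10, the mice farthest from the median, r was 0.946 (adjusted p = 0.143) and rho 0.821 (adjusted p = 0.331), so that neither passed. Centred within phase, with M7 kept, r was 0.992 (adjusted p = 0.0312). Atf4 and Ddit3 had rho = 0.9 (exact p = 0.00203, adjusted p = 0.0456) and r = 0.793 (exact p = 0.0114, adjusted p = 0.128), and without M2 and M7 r was 0.568, so that the linear relation rests in part on those mice. Within phase neither pair passed on ranks (adjusted p = 0.156 for both).

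In the tumors 25 of 45 pairs were positive with a median rho of 0.0667, and none passed on ranks or on r, with 8 and 9 pairs at an unadjusted exact p under 0.05. The closest was the inverse pair Xbp1 and Trib3 (rho = -0.917, exact p = 0.00131, adjusted p = 0.059, and r = -0.638, exact p = 0.0768, adjusted p = 0.288). Without M4 and M6, the mice farthest from the median of Xbp1, rho was -0.964 (adjusted p = 0.125) and r -0.873 (adjusted p = 0.325). The level of each gene in the tumor was also correlated with that in the liver of the same mouse. Of the 10 genes none passed on ranks or on r (3 and 2 at an unadjusted exact p under 0.05), with rho from -0.7 (Atf4, exact p = 0.0433, adjusted p = 0.144, r = -0.808, adjusted p = 0.0806) to 0.733 (Hspa5 and Herpud1, exact p = 0.0311 and adjusted p = 0.144 for each). A miss at 9 mice does not show that the levels are unrelated.

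Genes most like each of the 10 were sought over the 14 livers among 10933 genes, by Pearson r of deviations from the group means, as a description. Hspa5 was nearest to Creld2 (0.985) and Manf (0.97), an ER-resident secreted factor, and these were 0.954 and 0.932 without M7. Sdf2l1 was nearest to the ER foldase Pdia3 (0.952) and the lectin chaperone Calr (0.936), and Herpud1 to Chac1 (0.875) and Ing1 (0.84). Asns was nearest to Psat1, an enzyme of serine synthesis (0.934 with and without M7), and to Alpk1 (0.865, and 0.769 without M7). Ddit3 was nearest to Creld2 (0.918, and 0.769 without M7), Creld2 after Hspa5 to Tspyl2 (0.964), Atf3 to Dmbt1 (0.88) and Map3k14 (0.82), and Trib3 to Fam13a (0.868). Xbp1 was nearest to Tmem186 (0.869) and Tmed1 (0.858), and Atf4 to 1700123O20Rik (0.893) and Rnf113a2 (0.886). The other near genes of Ddit3 and Trib3 have an identifier but no symbol. The correlations share the libraries and, for the chaperone-side genes and Ddit3, the liver of M7.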

How the data were processed

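Poly(A) RNA of 23 mouse tissues was sequenced by the authors, who deposited for each gene the raw count and the RPKM of every library, the RPKM being the count divided by gene length and library total. Per the submitters' notes, HISAT2, HTSeq 0.6.0, and mm10 were used. The symbols on more than 1 row (2) were summed, and all 46 columns were matched to samples by mouse and tissue. Counts were compared with edgeR 4.0.16 in R 4.3.3 (TMM, quasi-likelihood test, two-sided) keeping genes that reached 10 counts in 5 or more libraries of the comparison, with Benjamini-Hochberg adjustment over all genes tested and a threshold of 0.05, and SE were derived from its F statistic. On simulated counts for the liver comparison (16716 genes), 66 of 100 changes of 1 and 85 of 100 changes of 2 on the log2 scale were called, with 6 calls among 16516 other genes. For changes of 1, 61 of 100 were called in tumor versus pre-metastatic liver and 48 of 100 in tumor versus control liver. All other genes had equal means in both groups. The simulation thus held neither the shift in composition between tumor and liver nor an outlying library such as the liver of M7. Correlations used log2(RPKM + 1) and exact permutations (Python 3.11.15, scipy 1.17.1). DESeq2 1.42.0, limma 3.58.1, exact Wilcoxon tests, other scalings and filters, each library left out, clock phase, and the mouse as a block were alternatives, and fits combining phase with removal of the liver of M7 were added after the data were seen. Among the fits that left out a library, the one without the liver of M7 was singled out by that liver's values for the 10 genes.

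The 10 genes, the lists, and the tests were chosen with earlier results of these data known. Beyond the 10, the genes named are up to 2 per list and comparison with the largest log2 fold change among those past the threshold whose RPKM ranges do not overlap, the nearest genes by correlation, and Fgf21, chosen after its value was seen. The clock index subtracts the mean of Arntl, Npas2, and Clock from the mean of Dbp, Per3, and Ciart. Liver and tumor of 1 animal carry 1 mouse number in the labels, and the correlation of their deviations from group means was 0.00148 to 0.291 (mean 0.111, 8614 genes). Between liver and tumor of different mice its mean was -0.0141. Replicates are separate mice. Counting error at these depths covers the sampling of reads only. Positions of 8 of the 10 genes equal those of RefSeq, while those of Herpud1 and Asns differ, in both at the start of the gene. Herpud1 also differs at its end (94395366, against 94395371 in RefSeq). Herpud1 lies over an antisense gene, and whether counting used strand is not given in the sources used here.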

Additional observations from a re-analysis of the deposited data

Results flagged for a closer look

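Of 30 groups examined (10 genes in 3 groups), 8 held a library far from the nearest other by Dixon's criterion. Chance would give about 1.5 for normally distributed values, but the criterion was applied to RPKM without logs, so that 1.5 may be too low. In all 8 the distant value was the highest of its group. In 5 the distant library was the pre-metastatic liver of M7: Hspa5 at 1162 RPKM (next 473), Sdf2l1 at 159 (next 86.2), Creld2 at 274 (next 61.6), Herpud1 at 336 (next 138), and Ddit3 at 14.3 (next 5.44). These 5 values come from 1 library and are not independent of each other. The pre-metastatic liver of M12 had Atf3 at 3.77 RPKM (next 1.9). The tumor of M2 had Trib3 at 51.8 RPKM (next 24.2). The control liver C7, the late-phase control liver, had Asns at 0.821 RPKM (next 0.227).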

How the results depend on the processing

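In pre-metastatic versus control liver, the count of lower genes among the 10 (1 in the comparison as reported) was 3 with library totals, 2 with at least 50 counts, 4 with limma on log2(RPKM + 1) or log2(RPKM + 0.1), 3 with DESeq2, and 3 with exact Wilcoxon tests on RPKM. It was 5 in the early phase without the liver of M7 and 4 with phase as a covariate without it (Hspa5, Creld2, Herpud1, and Ddit3, not Atf3), and 1 to 4 when each library was left out, the 4 being without M7. Asns was the higher gene in each of these fits that left out a library. Of all 16987 genes, 2261 were lower in the comparison as reported and 2796 with library totals. The share of all genes is not given for the limma, DESeq2, Wilcoxon, 50-count, phase, and mouse block fits, here and below. Counts of the 10 genes in those fits cannot be read against such a share. In tumor versus pre-metastatic liver (5 higher, 5 lower), library totals, both limma fits, and the Wilcoxon tests gave 3 lower (with 6 higher in the Wilcoxon tests, which called Hspa5 higher), and the early phase alone 3 higher. Leaving out each library gave 4 to 5 higher and 5 lower. Hspa5 turned to 0.18 with library totals and to 0.33 with limma and Wilcoxon tests, Creld2 to 0.17 or 0.18 with limma and 0.17 with Wilcoxon tests, and Spcs1 to 0.52 with library totals and 0.51 with the RPKM-based fits. In tumor versus control liver (3 higher), library totals gave 5, where they called 12859 of all 19320 genes higher. Leaving out each library gave 3 higher and 5 lower every time. Ddit3 turned to 0.92 with library totals, 0.89 and 0.94 with limma, and 0.89 with Wilcoxon tests, and Atf3 to 0.75 with library totals. These fits divide by library totals, which moved the median of all genes by 1.18 and 1.08 in the tumor comparisons. Elsewhere the cause was not tested. With the mouse as a replicate block, tumor versus pre-metastatic liver gave 5 higher and 5 lower, and no call changed. Of the correlated pairs in pre-metastatic liver (2), 1 passed with Pearson r, and on ranks 0 passed within phase, without the 2 farthest mice, or with TMM-scaled values. On Pearson r within phase, Hspa5 and Creld2 passed. Upper-quartile scaling and the absence of a count filter changed no call among the 10. With 5 control livers, 1 of them in the late phase, no late-phase liver comparison could be fitted.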
